A study of Homo sapiens with 6 samples.

Results

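Replicate 2 was compared with replicate 1 within each of 3 groups of H358 cells, an established human lung adenocarcinoma line, over 6 RNA-seq libraries that form 3 pairs: every library of the series belongs to a pair, so 6 of 6 libraries were used. One group, WT, is the unaltered parent with BRMS1 wild type. The others are the isogenic clones C1 and C2, whose genotype is given as BRMS1v2 A273V/A273V. No allele or agent beyond this genotype is listed for any group, all cells grew in RPMI with 10% FBS, and C1 and C2 are single clones, so each stands for 1 derivation. BRMS1 is a subunit of a SIN3-HDAC co-repressor complex and a metastasis suppressor. The labels do not say what the replicate number marks or whether replicates were separate cultures, so a culture state, a day and a preparation cannot be told apart. The p-values below cover these libraries only, and much of the spread behind them is borrowed across genes. The main test had 2 residual degrees of freedom and a median total of 13.3. With WT set apart these were 1 and 44.7, so such p-values do not measure how pairs vary. The pairs follow the sample titles and not expression values.

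Proliferating cells renew their transcript pool in waves. In late G1 and S phase, E2F factors drive the genes that make nucleotides, license origins and copy DNA. In G2 and mitosis, the MuvB complex with B-MYB and FOXM1 drives cyclins, mitotic kinases and kinesins, and in resting cells the DREAM complex represses both waves. Replication-dependent histones are made in S phase and their transcripts normally lack a poly(A) tail. Growth arrest, dense culture and nutrient shortage also touch mitochondrial, secretory and stress programmes, among them the ATF4 response to amino acid shortage, the heat shock response and interferon signalling.

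Gene counts ran from 27527867 to 37146270 per library, and 17129 of 57445 genes passed the filter on low counts. The share of gene counts from mitochondrial genes was lower in replicate 2 of each group, at 5.01% against 7.38% in WT, 6.26% against 8% in C1 and 6.83% against 8.67% in C2. Reads outside genes were a slightly smaller share in replicate 2 of each group as well, at 9.98% against 10.7% in WT, 9.77% against 10.1% in C1 and 9.91% against 10.6% in C2. Unaligned reads (1.24% to 2.27%) were lower in replicate 2 of WT and higher in replicate 2 of C1 and C2. The part of these shares in the differences below was not tested. The 6 defining epithelial markers (EPCAM, CDH1, KRT7, KRT8, KRT18 and KRT19) were expressed in all libraries, with summed levels of 5146 to 7341 CPM (counts scaled to library size), and 0 of 6 were called. Of 12 fibroblast markers 4 could be tested and 2 rose (COL1A1 and COL3A1), with summed levels of 41.3 to 52.4 CPM in replicate 1 and 64.8 to 73.1 CPM in replicate 2. Of 14 blood cell markers 4 could be tested and 1 rose (CD14), with sums of 2.81 to 3.81 CPM and 4.98 to 5.45 CPM, and of 8 endothelial markers 3 could be tested and 1 rose (KDR), with sums of 9.85 to 18.5 CPM and 21.4 to 42.3 CPM. DPT, CD2, HBA2, HBB and EMCN had no count in any library, and PTPRC had 35 counts over all 6. The part of other cell types in the differences below was not tested.

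Across all genes, 2141 were higher in replicate 2 (12.5% of those tested) and 2088 were lower (12.2%) in edgeR's quasi-likelihood test with the group as a covariate, at an adjusted p below 0.05. With libraries scaled to their totals alone, which moved the median gene by 0.08 on the log2 scale, the split was 2774 higher and 1705 lower. Differences of at least 2-fold were called for 770 higher and 710 lower genes. The median log2 difference over all genes tested was 0. The 3 pairs do not share a library, and their log2 differences correlated across 8768 genes with a mean log2 CPM of at least 4 by 0.677 for WT with C1, 0.728 for WT with C2 and 0.801 for C1 with C2. These are descriptions across genes, which are not independent. Without the C2 pair, 343 genes were higher and 451 lower, against 2322 and 2170 without the WT pair and 1926 and 1760 without the C1 pair. Without C2 the comparison rests on the WT and C1 pairs, whose differences correlated least (0.677). Leaving out a single C2 library compares the same WT and C1 pairs and is no separate check. Why the counts dropped was not tested. Of the 4229 genes called, 0 changed direction in the 15 other settings, among those still tested in each. These settings refit the same libraries or parts of them, so a change of direction was unlikely. In bulk RNA, fewer cells in a state and less RNA per cell cannot be told apart.

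**Figure D1:**
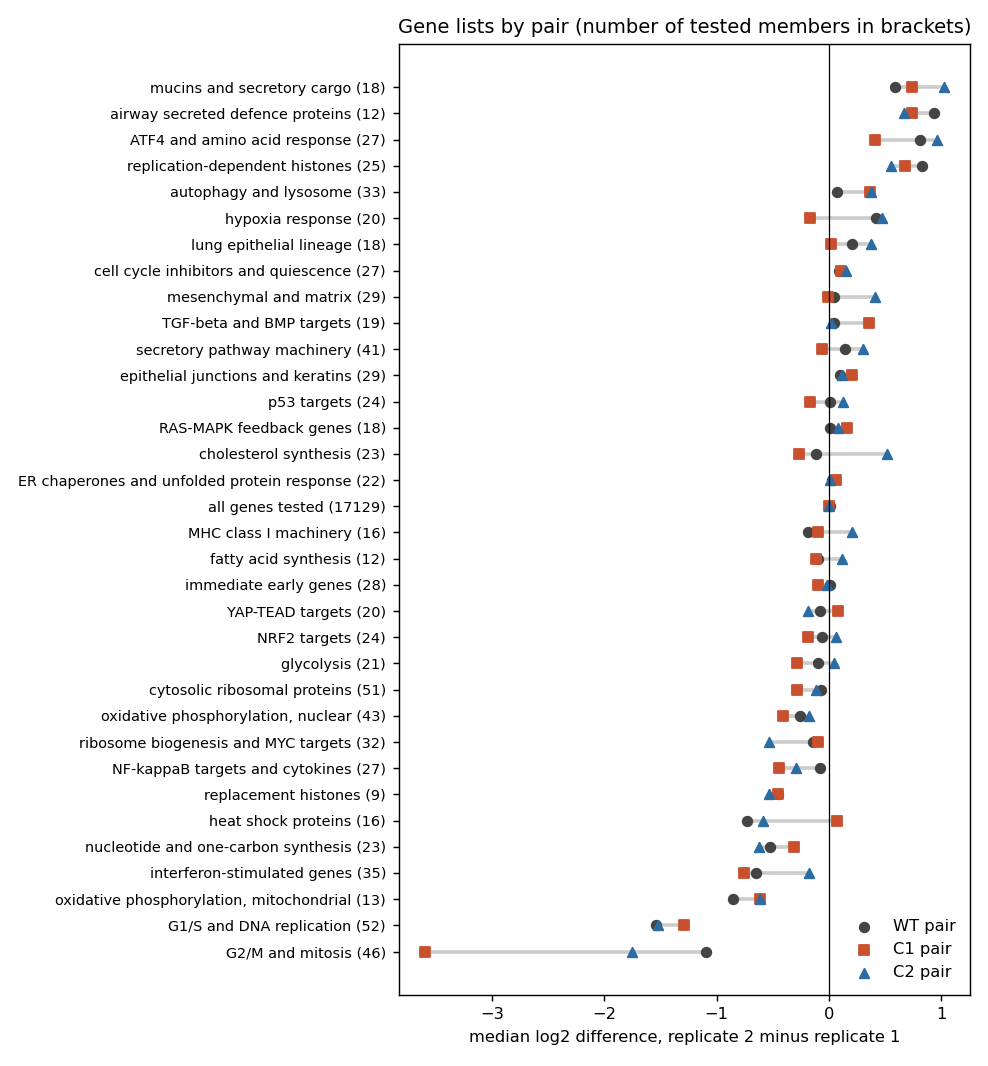
Each row is a gene list with its number of tested members; the x axis is the median log2 difference between replicate 2 and replicate 1, with circles for the WT pair, squares for C1 and triangles for C2. G1/S genes lie at -1.54, -1.29 and -1.52 and G2/M genes at -1.09, -3.60 and -1.75, while the median over all genes tested is 0.01, 0 and 0.

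Genes of DNA replication were lower in replicate 2 of every group. Of 52 listed G1/S and DNA replication genes, all of which could be tested, 51 fell and 0 rose, with a median log2 difference of -1.43. This compares with 12.2% of all genes lower. The exception was CCND3, a D-type cyclin, at -0.02 (95% interval -0.35 to 0.31). Summed over the list, the level went from 4944 to 1883 CPM in WT, from 3540 to 1697 CPM in C1 and from 4673 to 1843 CPM in C2.

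RRM2, the inducible subunit of ribonucleotide reductase, stood at 198, 191 and 213 CPM in replicate 1 of WT, C1 and C2 and at 26.8, 15.3 and 40.0 CPM in replicate 2. Its lowest replicate 1 library was above its highest replicate 2 library, and the fitted log2 difference was -2.97 (SE 0.23, adjusted p 0.00014 by edgeR). TYMS, the thymidylate synthase that makes dTMP, went from 83.9, 62.7 and 85.3 CPM to 13.5, 7.08 and 14.2 CPM, again without overlap (-2.78, SE 0.16, adjusted p 5.6e-07 by edgeR). CCNE2, the cyclin E that partners CDK2 at the start of S phase, fell by 2.65 on the log2 scale, and its lowest library was WT replicate 2 at 1.04 CPM, not the C1 library.

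PCNA, the sliding clamp of DNA polymerases, had 215, 132 and 187 CPM in replicate 1 and 52.1, 49.4 and 61.7 CPM in replicate 2 (-1.69, SE 0.14, adjusted p 7.3e-06 by edgeR). MCM10, which helps fire the replicative helicase, had 34.6, 21.1 and 34.6 CPM against 8.24, 3.14 and 7.55 CPM. Both were low in all 3 replicate 2 libraries, with no overlap. CDC6, an origin licensing factor, fell less, by 1.11 on the log2 scale (SE 0.14). MCM5, a helicase subunit, was the member set apart in C1: it went from 72.3 to 43.9 CPM in C1 but from 110 to 21.9 CPM in WT, a C1 difference 1.20 log2 units above the mean of the others (SE 0.32, adjusted p 0.022 by edgeR).

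The G2/M genes were lower in replicate 2 too, but by unequal amounts. All 46 listed G2/M and mitosis genes were tested and all 46 were lower in each of the 3 pairs, against 28.3% of all genes lower in all 3 pairs (28.2% were higher in all 3). The list's median was -1.09 in the WT pair, -3.60 in the C1 pair and -1.75 in the C2 pair. At least a 2-fold lower value was seen for 31 of 46 members in WT, 46 of 46 in C1 and 45 of 46 in C2, against 5.62% of all genes in WT, 8.02% in C1 and 5.88% in C2. The summed level fell to 0.476 of its replicate 1 value in WT (6272 to 2984 CPM), to 0.100 in C1 (6822 to 684.4 CPM) and to 0.321 in C2 (7606 to 2442 CPM). The replicate 1 libraries were close to each other and C1 replicate 2 was the library that stood apart.

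CCNB1, the mitotic cyclin B, had 216, 243 and 275 CPM in replicate 1 of WT, C1 and C2 and 128, 21.6 and 85.1 CPM in replicate 2. KIF20A, a kinesin of cytokinesis, had 132, 132 and 142 CPM against 55.6, 4.91 and 42.0 CPM. PLK1, the polo-like kinase of mitotic entry, had 102, 92.5 and 100 CPM against 52.3, 6.48 and 28.2 CPM. In each of these genes all replicate 2 libraries were below all replicate 1 libraries, and C1 replicate 2 was the lowest. MKI67, the proliferation antigen Ki-67, ran from 210, 179 and 258 CPM to 66.5, 10.6 and 56.8 CPM. CDC20, an activator of the anaphase-promoting complex, ran from 162, 133 and 153 CPM to 74.3, 11.2 and 57.1 CPM.

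The pairs differed widely from each other, and the common difference passed the threshold for 6 of the 46 members, against 12.2% of all genes lower. These were MYBL2 (B-MYB, -2.61, SE 0.17, adjusted p 2.4e-06 by edgeR), SPC25 (-2.43), KIF18A (-1.53), INCENP (-1.47), CCNF (-1.46) and ECT2 (-1.31). KIF20A, at -2.43 with an SE of 1.06, did not pass (adjusted p 0.26 by edgeR). Without the C1 pair 45 members were called lower, and DESeq2 called 45 and edgeR without robust shrinkage 46 with all pairs. The difference between pairs was tested directly by setting C1 against the mean of WT and C2. In that test 40 of 46 members were more negative in C1 and 0 more positive, with a median of -2.25 over the list, while 0.911% of all genes were more negative and 0.0876% more positive.

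List members were many among the genes with large C1 differences, though some genes outside the list differed by more. Among members KIF20A differed by -3.25 (SE 0.33, adjusted p 1.1e-18 by edgeR), HMMR, a spindle-associated hyaluronan receptor, by -3.12, and NUF2, a kinetochore subunit, by -3.06. Outside the list, at a mean log2 CPM of at least 2, FAM72A (-4.00) and PIF1 (-3.56), a DNA helicase, differed by more than KIF20A. FAM72D (-3.00) came just after NUF2. FAM72A and FAM72D are near-identical copies, and reads that aligned to several places were not counted, so their levels are uncertain. CCNF and MYBL2 were not among the genes set apart, with C1 differences of 0.06 (SE 0.33) and -0.72 (SE 0.34). Among list members, edgeR without robust shrinkage called 40 and DESeq2 39 in this test.

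**Figure D2:**
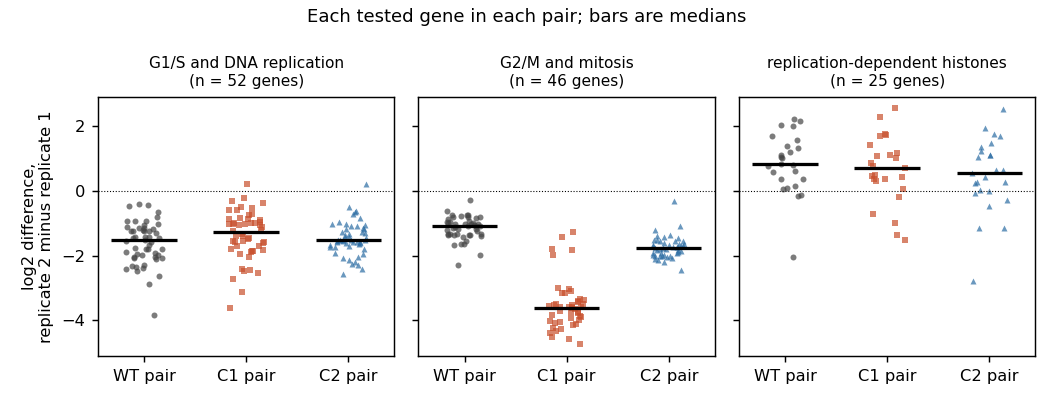
Each point is a tested gene and the y axis is its log2 difference between replicate 2 and replicate 1 in the WT, C1 or C2 pair; bars are medians. G1/S genes lie at similar depth in the 3 pairs, G2/M genes lie lowest in C1 (median -3.60), and most replication-dependent histones lie above 0.

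**Figure D3:**
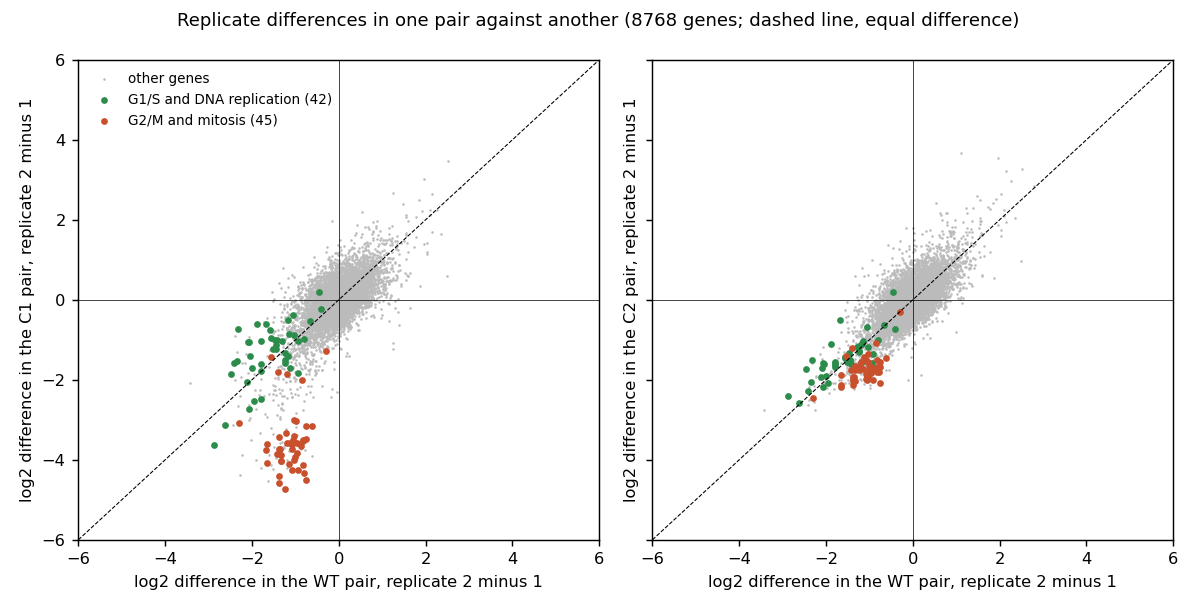
Each point is 1 of 8768 genes with a mean log2 CPM of at least 4; the x axis is the log2 difference in the WT pair and the y axis that in the C1 pair (left) or the C2 pair (right), and the dashed line marks equal differences. The 45 G2/M genes plotted sit below the line in the left panel except CCNF, most of them far from the 42 G1/S genes, which straddle it, and lie nearer to it in the right panel.

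Promoter windows of the cell cycle members are shown because the lists moved together and G1/S and G2/M genes parted in the C1 pair. Windows came from RefSeq on GRCh38.p14 and run from 250 bases before to 50 bases after the annotated start; 43 of 52 G1/S and 40 of 46 G2/M genes were matched. The letters searched on both strands were CCAAT, the cell cycle homology region TTTGAA, and 4 E2F forms, TTTCCCGC, TTTGGCGC, TTTCGCGC and TTTGCCGC; no form contains another. RRM2 (chr2:10122489-10122788, plus strand) and PCNA (chr20:5126573-5126872, minus strand) are G1/S genes, and HMMR (chr5:163460382-163460681, plus strand) and PLK1 (chr16:23678639-23678938, plus strand) are G2/M genes, chosen after the matches were seen. Each is written 5′ to 3′ along the gene, with matches of any of these words in capitals.
RRM2: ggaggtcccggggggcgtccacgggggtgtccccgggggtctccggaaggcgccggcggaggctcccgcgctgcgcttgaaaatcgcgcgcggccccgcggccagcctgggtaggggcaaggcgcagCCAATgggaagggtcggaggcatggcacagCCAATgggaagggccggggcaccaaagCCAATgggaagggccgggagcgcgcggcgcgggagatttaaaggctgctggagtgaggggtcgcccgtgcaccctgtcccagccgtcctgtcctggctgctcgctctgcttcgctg
PCNA: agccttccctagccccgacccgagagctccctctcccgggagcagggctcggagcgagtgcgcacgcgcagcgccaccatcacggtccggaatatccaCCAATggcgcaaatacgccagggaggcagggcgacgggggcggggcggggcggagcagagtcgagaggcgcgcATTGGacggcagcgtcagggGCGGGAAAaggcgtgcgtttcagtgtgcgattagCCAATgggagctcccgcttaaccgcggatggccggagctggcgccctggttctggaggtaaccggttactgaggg
HMMR: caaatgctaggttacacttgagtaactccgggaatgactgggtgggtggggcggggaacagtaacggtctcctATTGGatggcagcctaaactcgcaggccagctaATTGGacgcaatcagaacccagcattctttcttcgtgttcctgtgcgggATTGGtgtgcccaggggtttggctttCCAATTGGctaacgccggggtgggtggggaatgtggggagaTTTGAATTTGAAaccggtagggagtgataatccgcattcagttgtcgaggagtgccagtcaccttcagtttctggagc
PLK1: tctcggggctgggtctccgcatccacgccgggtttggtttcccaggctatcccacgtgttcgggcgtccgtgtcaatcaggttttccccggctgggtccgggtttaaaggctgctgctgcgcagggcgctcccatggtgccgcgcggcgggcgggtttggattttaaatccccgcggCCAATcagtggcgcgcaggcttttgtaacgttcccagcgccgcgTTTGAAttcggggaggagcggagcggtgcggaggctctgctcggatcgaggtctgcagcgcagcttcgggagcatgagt

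An E2F form was present in 22 of 43 G1/S windows (51.2%) and 3 of 40 G2/M windows (7.5%), against 3.31% of all 35116 windows. TTTGAA was present in 1 of 43 G1/S windows (2.33%) and 29 of 40 G2/M windows (72.5%), against 15.2% of all windows. CCAAT was present in 51.2% of G1/S and 77.5% of G2/M windows, against 34.6%. Lists with more members higher than lower held some of these words too. Among 22 windows of replication-dependent histones, 40.9% held an E2F form, 27.3% TTTGAA and 90.9% CCAAT. Among 22 windows of the ATF4 and amino acid response list, 0% held an E2F form, 4.55% TTTGAA and 63.6% CCAAT. In the windows printed, PCNA holds an E2F form with its first base at position -59 and PLK1 holds TTTGAA at -29, counting the annotated start as 0, and HMMR holds TTTGAA at -28 and again at -22. RRM2 holds CCAAT at -123, -93 and -66 and none of the 4 E2F forms. These are matches of letters in a window and were not tested against the expression differences.

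Genes that hold cells out of the cycle moved in both directions. Of 27 tested inhibitors and quiescence genes, 6 rose and 6 fell, against 12.5% and 12.2% of all genes. CDKN1A (p21) went from 113, 123 and 83.8 CPM in replicate 1 to 140, 96.4 and 161 CPM in replicate 2, and CDKN1B (p27) differed by 0.16 (95% interval -0.12 to 0.44). Neither passed. FOXO4 (0.83), the kinase gene DYRK1B (0.64) and KLF4 (0.63) rose, while CDKN2C, the CDK inhibitor p18, fell by 2.13 on the log2 scale. TXNIP, a thioredoxin-binding protein that limits glucose uptake, is named outside the rule because the groups parted: it went from 315 to 750 CPM in WT and from 455 to 936 CPM in C2, but from 949 to 447 CPM in C1, a C1 difference of -2.23 (SE 0.26, adjusted p 1.7e-14 by edgeR).

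Part of the replication-dependent histones went the other way from the S-phase genes. Of 65 listed genes 25 could be tested, and of these 11 rose, 1 fell and 13 were not called. Over all genes 12.5% rose and 12.2% fell. At least 2-fold higher values were seen for 12, 9 and 10 of the 25 in WT, C1 and C2. At least 2-fold lower values were seen for 1, 3 and 3. Their summed level rose to 2.04, 2.02 and 2.02 times its replicate 1 value, from 208.4 to 426.1 CPM in WT, 249.2 to 502.4 CPM in C1 and 253.6 to 511.1 CPM in C2. In the edgeR tests that set WT, C1 or C2 apart, 0 of the 25 were called.

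HIST1H1C, a linker histone, had 21.3, 23.2 and 22.2 CPM in replicate 1 of WT, C1 and C2 and 87.1, 62.1 and 74.3 CPM in replicate 2 (1.73, SE 0.15, adjusted p 7.3e-06 by edgeR). HIST1H2AC, a core H2A gene, had 14.9, 26.7 and 20.4 CPM against 66.0, 86.2 and 78.2 CPM (1.92, SE 0.14, adjusted p 2.8e-06 by edgeR). HIST1H4H had 3.33, 4.41 and 5.47 CPM against 13.6, 14.8 and 11.7 CPM. In all 3 genes every replicate 2 library was above every replicate 1 library. HIST2H2BE, an H2B gene, rose by 1.12 with pair values of 1.08, 1.17 and 1.11. The member that fell was HIST2H2AC, on 28, 19 and 17 counts in replicate 1 against 5, 5 and 1 in replicate 2; DESeq2 did not call it. Genes within a histone family are close in sequence, and reads that aligned to several places were not counted to any gene. The levels of single members are therefore uncertain.

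Replacement histones, which are generally polyadenylated and made outside S phase as well, did not share the rise. Of 9 tested, 0 rose and 5 fell, against 12.5% and 12.2% of all genes. H2AFX, the histone of DNA damage foci, went from 96.9, 57.5 and 63.3 CPM to 31.9, 17.9 and 23.9 CPM (-1.56, SE 0.13, adjusted p 7.3e-06 by edgeR). H2AFZ (H2A.Z) fell by 1.15 and H2AFV by 0.96 on the log2 scale. How RNA was selected for the libraries is not given in the sources used here, and its part in the histone counts was not tested.

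**Figure D4:**
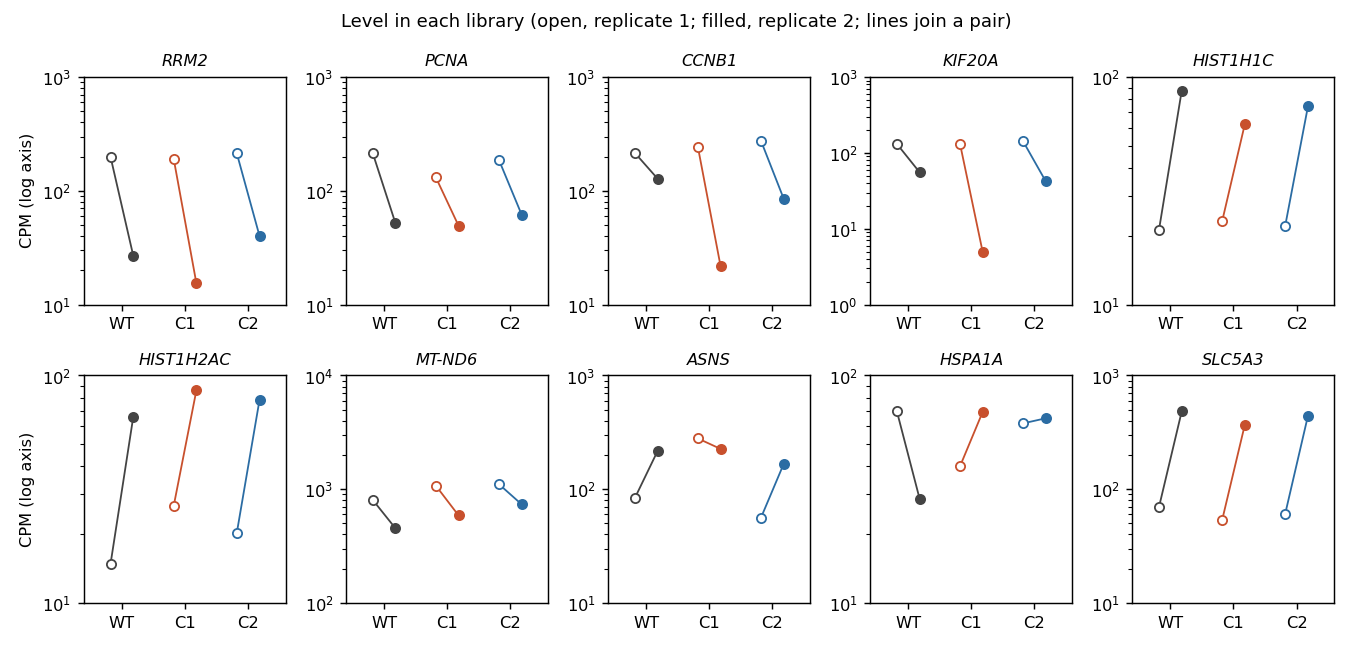
Each panel is a gene; the y axis is its level in CPM on a log axis, open circles are replicate 1, filled circles replicate 2, and lines join the 2 libraries of a group. CCNB1 and KIF20A drop farthest in C1 (to 21.6 and 4.91 CPM), the histones and SLC5A3 climb in all 3 groups, and ASNS and HSPA1A take another direction in C1 or WT than in the remaining groups.

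Mitochondrially encoded subunits of the respiratory chain were lower in replicate 2. Of 13 genes, all tested, 12 fell and 0 rose, against 12.2% and 12.5% of all genes. Pair medians were -0.85 in WT, -0.61 in C1 and -0.61 in C2. MT-ND4, a subunit of complex I, fell by 0.93 on the log2 scale (SE 0.12, adjusted p 0.00013 by edgeR), and MT-ND6, the subunit encoded on the other strand, went from 806, 1075 and 1107 CPM to 453, 588 and 736 CPM, without overlap. MT-CO3 did not pass, at -0.25 (95% interval -0.50 to 0.00). Nuclear subunits moved less: 15 of 43 fell and 0 rose, with a median of -0.31, led by ATP5G1, a ring subunit of ATP synthase (-1.14). Without the C2 pair 4 of the 43 were called lower, and 8 without the C1 pair.

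Genes of nucleotide synthesis were lower as well. Of 23 tested members of the nucleotide and one-carbon list, 13 fell and 1 rose, against 12.2% and 12.5% of all genes. TYMS, also counted above, led at -2.78. PAICS, an enzyme of purine synthesis, went from 489, 357 and 449 CPM to 250, 174 and 188 CPM (-1.08, SE 0.12, adjusted p 4.3e-05 by edgeR), with no overlap. SHMT2, the mitochondrial serine hydroxymethyltransferase, was the member that rose (0.52), and it is also on the ATF4 list.

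Glycolysis, ribosome and lipid genes are read here against 12.5% of all genes higher and 12.2% lower. Of 21 glycolysis genes 5 fell and 0 rose, GAPDH by 0.73 on the log2 scale (2203, 1943 and 1936 CPM in replicate 1, 1332, 1009 and 1361 CPM in replicate 2). Of 20 hypoxia response genes 6 rose, among them BNIP3 and P4HA1 (both 0.70), while VEGFA stood at 0.17 (95% interval -0.08 to 0.41) and SLC2A1 at 0.08. The list's pair medians were 0.42 in WT, -0.17 in C1 and 0.47 in C2. With C1 set apart, 2 of the 20 were more negative in C1 by edgeR (NDRG1, -1.73, and LOX, -1.97), against 0.911% of all genes. DESeq2 called 1 of the list in that test. Of 51 cytosolic ribosomal protein genes 11 fell and 0 rose, at a median of -0.17, and of 32 ribosome biogenesis genes 9 fell and 0 rose, FBL and NCL among them at -0.80 and -0.77. In cholesterol synthesis 2 of 23 rose (SC5D 1.04, TM7SF2 0.76) and 1 fell (MVK, -0.60), both below the shares over all genes. In fatty acid synthesis SCD (0.73), FADS2 (0.70) and ACACA (0.54) rose and ACACB fell by 1.17 on the log2 scale, out of 12 tested.

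Mucins and their cargo genes were higher in replicate 2. Of 28 listed genes 18 could be tested, and of these 10 rose and 1 fell, against 12.5% and 12.2% of all genes. MUC16, a transmembrane mucin known as CA125, had 46.2, 60.4 and 52.2 CPM in replicate 1 of WT, C1 and C2 and 176, 280 and 298 CPM in replicate 2 (2.22, SE 0.14, adjusted p 9.2e-07 by edgeR). ST6GALNAC1, a sialyltransferase that caps mucin sugars, had 15.4, 53 and 35.3 CPM against 66.7, 232 and 168 CPM (2.17, SE 0.12, adjusted p 5.6e-07 by edgeR). CEACAM5, the carcinoembryonic antigen, had 20.3, 115 and 70.4 CPM against 70.2, 480 and 342 CPM. MUC16 and ST6GALNAC1 did not overlap between replicates, and CEACAM5 did, since WT replicate 2 was below C1 and C2 replicate 1. Without the C2 pair 5 members were called higher, and 2 without the group term.

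MUC1 rose by 1.61 and AGR3 by 1.92, and MUC13 fell by 0.90 on the log2 scale (adjusted p 0.047 by edgeR), a call that DESeq2 and edgeR without robust shrinkage did not make. Of the gel-forming mucins, MUC5AC and MUC5B did not pass: MUC5AC stood at -0.47 (95% interval -1.26 to 0.31) and MUC5B at 0.08. MUC5B was lower in WT replicate 2 (78.6 to 35.1 CPM) and higher in C1 (68.0 to 98.5 CPM) and C2 (48.4 to 84.5 CPM), a WT difference of -1.83 from the mean of the clones (adjusted p 0.00012 by edgeR). SPDEF, a transcription factor of goblet cells, likewise went from 2.27 to 1.95 CPM in WT but from 3 to 13.1 CPM in C1 and from 1.93 to 16.7 CPM in C2, a WT difference of -2.81 (adjusted p 0.0024 by edgeR).

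The lists of this paragraph are read against 12.5% of all genes higher and 12.2% lower. Of 12 tested secreted airway defence genes, out of 24 listed, 5 rose and 1 fell. SLPI (1.42), an inhibitor of neutrophil elastase, LCN2 (1.30), which binds bacterial siderophores, and the complement genes C3 (1.26) and CFB (1.11) rose, and ANXA1 fell by 0.55 on the log2 scale. The machinery of the secretory pathway moved little. Of 41 genes 5 rose and 1 fell, both below the shares over all genes, with a median of 0.11. KDELR3 (1.13), a retrieval receptor for ER proteins, and CREB3L1 (0.90), a membrane-bound transcription factor, led those that rose. Among ER chaperones and genes of the unfolded protein response, 5 of 22 rose and 4 fell: the sensors ERN1 (0.92) and ATF6 (0.60), with DNAJB9 (0.95), HERPUD1 (0.77) and XBP1 (0.48), rose, and the chaperones HSP90B1 (-0.50), CALR (-0.45), PDIA6 (-0.34) and the folding factor MANF (-0.49) fell.

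ATF4 and amino acid response genes rose. Of 27 tested members 17 rose and 0 fell, against 12.5% and 12.2% of all genes. The median was 0.80 in the fit and 0.81, 0.41 and 0.96 in the WT, C1 and C2 pairs. GDF15, a stress-induced cytokine, went from 50.5, 104 and 45.7 CPM to 149, 209 and 180 CPM (1.51, SE 0.17, adjusted p 0.00022 by edgeR), and TRIB3, a pseudokinase, from 93.7, 105 and 46.6 CPM to 268, 167 and 106 CPM (1.12, SE 0.16, adjusted p 0.00047 by edgeR). GDF15 did not overlap between replicates and TRIB3 only just separated, with 105 CPM in C1 replicate 1 and 106 CPM in C2 replicate 2. WARS, tryptophanyl-tRNA synthetase, rose by the same amount in each pair (1.02, 0.95 and 1.04).

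ASNS, asparagine synthetase, was split by group: 83.3 to 216 CPM in WT, 279 to 226 CPM in C1 and 56.2 to 167 CPM in C2. Its level in C1 replicate 1 was the highest of the 6 libraries, and its C1 difference lay -1.78 from the others (SE 0.28, adjusted p 9.7e-08 by edgeR). ALDH1L2 (-1.66), SLC7A11 (-1.16) and PSAT1 (-0.97) were set apart in C1 in the same direction, and DESeq2 called 1 member of the list in this test. With WT set apart, DDIT3 was more positive in WT (1.435, adjusted p 0.0031 by edgeR), 1 of 27 members against 0.105% of all genes. DESeq2 called 1 member in that test and edgeR without robust shrinkage 0. The ATF4 transcript itself stood at 0.12 (95% interval -0.15 to 0.39). Without the C2 pair 4 members were called higher, and 3 without the group term.

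Part of the heat shock genes were lower in replicate 2 of every group and others differed by group. Of 16 tested members 7 fell and 1 rose, against 12.2% and 12.5% of all genes, with pair medians of -0.73 in WT, 0.07 in C1 and -0.59 in C2. The level was lower in all 3 pairs for 8 members, among them HSPA4L (-0.89, -0.82 and -1.02 in WT, C1 and C2), HSPE1 (-1.07, -0.58 and -0.67), a mitochondrial co-chaperonin, and BAG3 (-0.92, -0.46 and -0.65), a co-chaperone of HSP70. HSP90AA1, the inducible cytosolic HSP90, went from 2599, 2068 and 2778 CPM to 1136, 1670 and 1500 CPM (-0.80, SE 0.16, adjusted p 0.0048 by edgeR). HSPA8, the constitutive HSP70, went from 1425 to 551 CPM in WT and from 1424 to 798 CPM in C2, but from 853 to 1145 CPM in C1, a C1 difference of 1.53 (SE 0.25, adjusted p 3.4e-07 by edgeR). HSPA1A (1.39), HSPA1B (1.16) and HSPH1 (1.07) were also more positive in C1, so that edgeR called 4 of the 16 in this test (0.0876% of all genes) and DESeq2 called 1. With WT set apart, HSPA1A (-1.71), HSPA1B (-1.36) and HSPB1 (-1.34) were more negative in WT (0.45% of all genes); DESeq2 called 2 members in that test and edgeR without robust shrinkage 0. HSPA1A, an inducible HSP70, went from 69.6 to 28.7 CPM in WT, from 39.9 to 69.2 CPM in C1 and from 61.6 to 64.9 CPM in C2. HSPA1A and HSPA1B are near-identical, and reads that aligned to several places were not counted, so their levels are uncertain. HSPH1, a nucleotide exchange factor for HSP70, was the member that rose (0.92). The count of 7 lower was 11 without the C1 pair and 1 without the C2 pair.

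Many interferon-stimulated genes were lower in replicate 2. Of 35 tested members 17 fell and 1 rose, against 12.2% and 12.5% of all genes, with pair medians of -0.65 in WT, -0.76 in C1 and -0.18 in C2. The summed level was lower in replicate 2 of WT (3793 to 2534 CPM) and C1 (2469 to 1760 CPM) and higher in replicate 2 of C2 (2241 to 2479 CPM). With C1 set apart, OAS2 (-1.38), HERC5 (-1.34), IFIT1 (-1.26) and OASL (-1.12) were more negative in C1 by edgeR, 4 of 35 against 0.911% of all genes, and DESeq2 called 0 of them. IFI44 went from 150, 121 and 119 CPM to 60.2, 36.9 and 65.0 CPM (-1.30, SE 0.16, adjusted p 0.00015 by edgeR), and OAS3, a sensor enzyme of double-stranded RNA, from 355, 143 and 162 CPM to 150, 73 and 89.4 CPM (-1.02, SE 0.12, adjusted p 9.2e-05 by edgeR). IFI44 separated the replicates, and OAS3 did not, since WT replicate 2 was above C1 replicate 1. IFI27 fell by 1.59 on the log2 scale although WT was above both clones in each replicate (225 and 96.7 CPM in WT, 28.5 and 6.81 CPM in C1, 14 and 4.83 CPM in C2). DDX60, an RNA helicase, rose (0.71), while IFIT2 (0.06) and RSAD2 (0.24) did not pass. Without the C2 pair 11 members were called lower, and 4 without the group term.

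**Figure D5:**
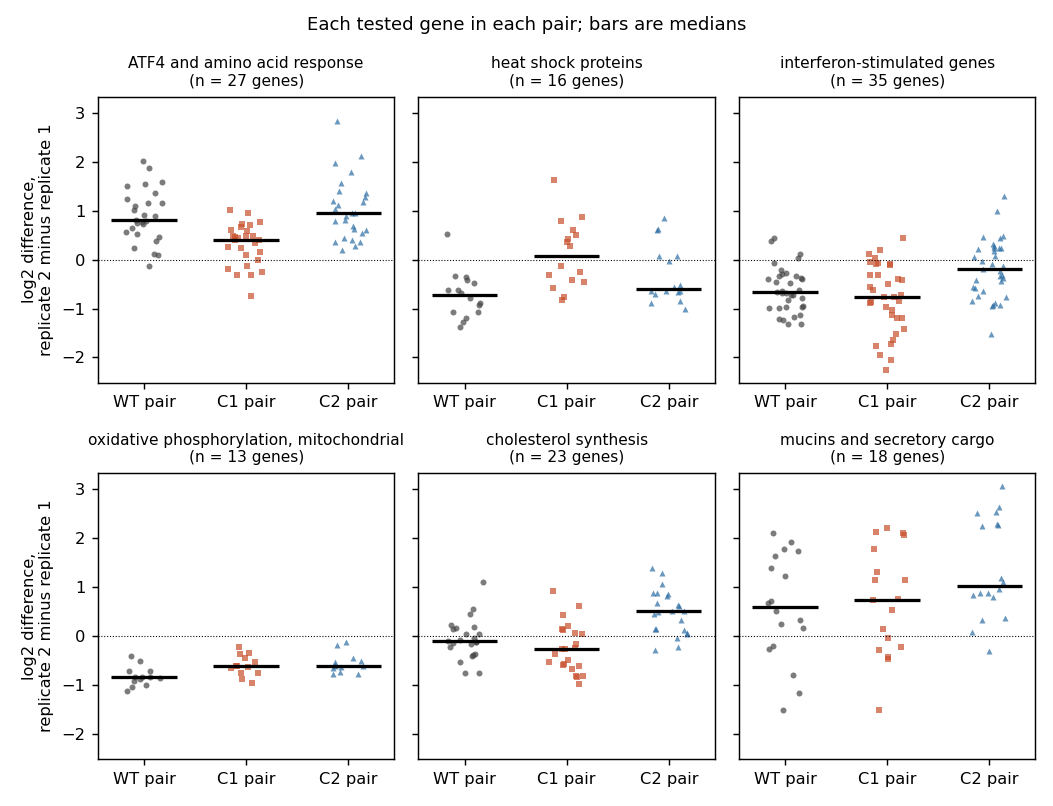
Each point is a tested gene and the y axis is its log2 difference between replicate 2 and replicate 1 in the WT, C1 or C2 pair; bars are medians. The 13 mitochondrially encoded genes lie below 0 in every pair, heat shock genes have a median of 0.07 in C1 but of -0.73 in WT and -0.59 in C2, and cholesterol genes lie above 0 in C2 (median 0.52).

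Immediate early genes did not move as a block, with 7 of 28 higher and 6 lower, against 12.5% and 12.2% of all genes. FOS, which the series title names, had 9.91, 12.4 and 7.54 CPM in replicate 1 of WT, C1 and C2 and 15.8, 16.8 and 10.7 CPM in replicate 2 (0.54, SE 0.17, adjusted p 0.037 by edgeR); the replicates overlapped, since C2 replicate 2 was below C1 replicate 1. EGR1, a growth factor-induced zinc finger, went down, from 39.9, 20.8 and 18.4 CPM to 7.94, 3.24 and 6.07 CPM (-2.19, SE 0.21, adjusted p 3e-05 by edgeR), and FOSL1 fell by 1.38 on the log2 scale. BRMS1 stood at 42.9, 26.9 and 28.6 CPM against 34.7, 30.0 and 25.2 CPM, a difference of -0.11 (95% interval -0.42 to 0.20) that did not pass.

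Over all genes, the leading genes by size on the lower side included several of the cell cycle. CDCA3 (-2.98), CENPW (-2.86), FAM111B (-2.76), KIAA0101 (-2.73), E2F8 (-2.62) and CENPI (-2.60) fell, and so did SHISA3 (-2.81), an inhibitor of WNT and FGF receptors, and MMP7 (-2.58), a matrix metalloprotease. On the higher side, SLC5A3, the sodium/myo-inositol cotransporter, had 69.7, 53.3 and 60.9 CPM in replicate 1 and 483, 369 and 441 CPM in replicate 2, with near-equal differences of 2.79, 2.79 and 2.86 in the 3 pairs (2.81, SE 0.12, adjusted p 5.6e-08 by edgeR). PHOSPHO1, a phosphatase of bone mineralisation, had 17, 3 and 0 counts in replicate 1 and 959, 316 and 555 counts in replicate 2. CALB1, a calcium-binding protein, went from 22, 21 and 21 counts to 775, 316 and 502 counts.

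SLC34A2 and ABCA3, which are on the lung lineage list and expressed in alveolar type II cells, were among the highest as well. The surfactant genes SFTPA1, SFTPB and SFTPC, on the same list, had 22, 2 and 3 counts over all 6 libraries and were not tested. SLC34A2, the phosphate transporter of these cells, had 2.17, 0.509 and 0.491 CPM in replicate 1 and 24.4, 41.8 and 19.4 CPM in replicate 2 (4.86, SE 0.70, adjusted p 0.024 by edgeR), and ABCA3, the lipid transporter of lamellar bodies, had 3.61, 5.23 and 4.11 CPM against 20.9, 59.1 and 40.3 CPM (3.12, SE 0.20, adjusted p 2.4e-06 by edgeR). Neither overlapped between replicates. Of 18 tested lung lineage genes 3 rose and 2 fell, against 12.5% and 12.2% of all genes. The third that rose was CEBPD (0.87, adjusted p 0.00098 by edgeR), a C/EBP transcription factor, and SOX9 (-1.08), a factor of lung progenitors, and AGER (-0.73), a receptor of alveolar type I cells, fell. The lineage factors NKX2-1 (-0.57) and FOXA2 (-0.41) did not pass. NKX2-1 was lower in each pair, at -1.25 in WT, -0.22 in C1 and -0.23 in C2. ZSCAN4 (4.75), a zinc finger gene of early embryos, ARG2 (3.65), mitochondrial arginase, FBXO2 (3.23), LOXL4 (3.20), ZNF467 (2.97), CLEC7A (2.80) and RERG (2.75) completed the 12 highest.

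The size of the difference between replicates differed most between C1 and WT, and the G2/M genes made the widest gap among the lists described. Over the 8768 genes with a mean log2 CPM of at least 4, the SD of the log2 difference was 0.501 in WT, 0.649 in C1 and 0.552 in C2, and without the G1/S and G2/M lists it was 0.483, 0.590 and 0.530. These are single values per group, with no replicate of the pair, so they carry no test. At least 2-fold higher values were seen for 5.62% of genes in WT, 6.36% in C1 and 7.83% in C2. In the tests gene by gene, 171 genes were called with C1 set apart, 156 of them more negative in C1 and 40 of these on the G2/M list. HJURP, DEPDC1, NEK2, NCAPH and ESPL1, all genes of chromosome segregation, were among the rest and are named after their values were seen.

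With WT set apart, 18 genes (0.105%) were more positive and 77 (0.45%) more negative in WT than in the mean of the clones. With C2 set apart 0 (0%) were more positive and 0 more negative, 1 was called by DESeq2 (CP, ceruloplasmin) and 0 by edgeR without robust shrinkage. At an unadjusted p below 0.05 in edgeR there were 355 genes with C2, 1680 with WT and 1198 with C1 set apart. Median total degrees of freedom were 8.68 with C2 and 44.7 with WT set apart. In simulated counts the C2 test recovered 9% of 2-fold and 68% of 4-fold changes (15% and 71% for WT, 9% and 72% for C1). The 0 calls therefore do not show that C2 did not differ. The WT calls depended on the robust setting: without it 1 gene was called, VSTM2L, which went from 38.1 to 34.1 CPM in WT, 28.1 to 111 CPM in C1 and 19.3 to 67.3 CPM in C2, and DESeq2 called 22. At a mean log2 CPM of at least 2, SLCO2A1 (-2.52), SLC34A2 (-2.41), FGF19 (-2.24), ITGB3 (-2.22) and VSTM2L (-2.06) followed SPDEF in size. The simulated counts had 100 genes changed 2-fold and 100 changed 4-fold among 17129, with noise from the fit of a common replicate difference. In them 41.1% of the calls with WT set apart and 33.1% of those with C1 set apart were false, against 8.02% for replicate 2 against replicate 1. Such shares depend on how many genes are changed, so they do not carry over to the real calls. A single call of a set-apart test rests on 1 residual degree of freedom and is less secure.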

How the data were processed

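The authors deposited raw counts of reads by gene for 6 libraries, 1 column each, and 5 HTSeq totals below them, which were left out (per the file headers). Reads had gone through cutadapt 1.6, STAR 2.5.0a and HTSeq 0.5.3 on hg19, per the submitters' processing notes; a strand setting and an annotation release are not given in the sources used here, so reads of overlapping antisense genes cannot be told apart. Groups and replicate numbers came from the sample titles. The pairs, gene lists and named-gene rule were chosen with earlier results of these data known.

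Counts were filtered by filterByExpr (17129 genes of 57445, of which 26710 had no count), scaled by TMM (trimmed means of M values) and tested in R 4.3.3 with edgeR 4.0.16 (quasi-likelihood F test, robust, design group plus replicate, 2 residual degrees of freedom, Benjamini-Hochberg adjustment over all genes). Tests that set 1 group apart leave 1 residual degree of freedom. CPM values are on that scale, and log2 differences within a pair use a prior count of 2. From 3 pairs alone, an exact two-sided test could not go below p = 0.25, so the tests borrow spread across genes. DESeq2 1.42.0, other scalings, no filter, no group term and leaving out libraries or pairs were alternatives; edgeR without robust shrinkage was added after seeing the data. In simulated counts, 100 of 17129 genes were changed at each size. The test of replicate 2 against replicate 1 recovered 61% of 2-fold and 88% of 4-fold changes. Replicates were checked not to be copies (chi-square per gene of 90.7 for WT, 119 for C1, 105 for C2). Intervals are 95% and not adjusted for the number of genes.

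Named genes were up to 6 called members per list with the largest difference (mean log2 CPM of at least 1), members that did not pass or moved the other way, the 12 highest and 12 lowest genes called in the same direction in all 3 pairs (mean log2 CPM of at least 2), up to 6 per set-apart test at that level, and BRMS1 and FOS. The rule skips pseudogenes, antisense genes and loci named by clone. Some genes that the rule names are not reported here. The 37 lists hold 953 genes. Promoter windows came from RefSeq on GRCh38.p14.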

Additional observations from a re-analysis of the deposited data

Results flagged for a closer look

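The groups differed in their replicate difference for 171 genes with C1 set apart and for 95 genes with WT set apart, by edgeR's test of the difference itself. At a mean log2 CPM of at least 2, and without pseudogenes and loci named by clone, the leading genes in C1 were FAM72A (-4.00), PIF1 (-3.56), KIF20A (-3.25), HMMR (-3.12), NUF2 (-3.06) and FAM72D (-3.00), each more negative in C1 than in the mean of WT and C2. Under the same limits, those in WT were SPDEF (-2.81), SLCO2A1 (-2.52), SLC34A2 (-2.41), FGF19 (-2.24), ITGB3 (-2.22) and VSTM2L (-2.06), each more negative than in the mean of the clones. Less abundant genes with larger differences were called in both tests.

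Cholesterol synthesis genes had a median log2 difference of -0.11 in the WT pair, -0.27 in the C1 pair and 0.52 in the C2 pair. The medians lie on opposite sides of 0, and the difference between the medians was not tested. Gene by gene, 1 of 23 members was more negative with C1 set apart, against 0.911% of all genes. This was FDFT1 (-1.02, SE 0.27, adjusted p 0.017 by edgeR), and DESeq2 called 0 of the list. With WT or C2 set apart edgeR called 0 members.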

How the results depend on the processing

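No paired analysis was possible with the replicate number as the block, because the replicate number is the factor compared; each pair's group is a covariate in its place. The counts of higher and lower genes were 934 and 1083 without the group term and 770 and 710 with a difference of at least 1 log2 unit. Leaving out a library or a pair gave 263 to 2494 higher and 354 to 2355 lower genes; the low counts all came without C2 libraries (263 and 354 without replicate 1, 299 and 431 without replicate 2, 343 and 451 without the pair). With WT set apart 182 genes were called without a filter, 22 by DESeq2 and 1 without robust shrinkage, and with C1 set apart DESeq2 called 94. With C2 set apart 3 were called without a filter (CP, NDRG1 and TGM2) and 1 by DESeq2 (CP). The causes were not tested. Of the list counts 501 kept within 1.5 times and 165 did not, of the list medians 314 moved by less than the spread between pairs and 19 by more, and of values of named genes 1648 stayed on their side of the threshold, 225 lost and 25 gained a call, while of their values with a group set apart 40 kept and 8 lost one. No called value reversed under the alternatives run; 12 of the list median values and 1 uncalled gene value changed sign (SLCO2A1, 0.31 without the WT pair). Leaving a library out of the tests that set a group apart leaves no residual degrees of freedom, so these were not run. Genes under the filter on low counts, among them 40 of 65 replication-dependent histones, had too few counts to be tested. The part of sequencing depth in this was not tested.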

Other observations

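Lists of adhesion, matrix and signalling genes held members that moved both ways, to be read against 12.5% of all genes higher and 12.2% lower. Of 29 tested mesenchymal and matrix genes 10 rose and 7 fell: COL6A1 (1.48) and COL6A2 (1.5), chains of collagen VI, SPP1 (1.40), which encodes osteopontin, and ITGA5 (0.83) rose, while VIM (-0.61), FN1 (-0.72), CDH2 (-0.86) and ZEB1 (-1.05), markers of the mesenchymal state, fell. Of 29 epithelial junction and keratin genes 6 rose and 1 fell, the latter below the share over all genes. Of 33 autophagy and lysosome genes 9 rose, led by PSAP (0.94) and CTSL (0.85), and 5 fell, led by NPC2 (-0.77).

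The lists of this paragraph are likewise read against 12.5% of all genes higher and 12.2% lower. Of 24 p53 targets 5 rose (TP53INP1 1.47 and BBC3 1.23 the most) and 5 fell. Of 27 NF-kappaB targets and cytokines 5 rose, IL1B by 2.22 and ICAM1 by 1.14, and 5 fell, among them CCL20 (-1.73). Of 24 NRF2 targets 5 rose and 5 fell. INHBA, which encodes a subunit of activin, fell by 2.40 on the log2 scale, with 3 of 19 genes of the TGF-beta and BMP list higher and 3 lower.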
